A study of Rattus norvegicus with 8 samples.

Results

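The splicing factor genes described here comprised the heterogeneous nuclear ribonucleoproteins (hnRNPs, symbols starting with Hnrnp), the serine- and arginine-rich SR proteins (Srsf), the SF3a, SF3b and U2AF subunits that act at the branch point and the 3' splice site, and the paired DBHS proteins Sfpq and Nono. They were chosen by symbol alone, and only protein-coding genes were kept. The count table held 28909 symbols, of which 44 matched and 43 were retained, namely 18 hnRNPs, 11 SR proteins, 3 SF3a, 6 SF3b and 3 U2AF genes and the 2 DBHS genes. The remaining match, Srsf8, had 0 reads in all libraries. All 43 passed the filter on low counts, as 14309 genes did, and they were measured in every library.

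SR proteins bind exonic enhancers through RNA recognition motifs and recruit the spliceosome through their serine- and arginine-rich domains, while hnRNPs coat nascent RNA and often repress the use of nearby splice sites. U2AF marks the 3' splice site, and SF3a and SF3b, parts of the U2 small nuclear ribonucleoprotein, then hold the branch point. Many of these proteins also shuttle to the cytoplasm, where hnRNPs take part in the transport and translation of neuronal messenger RNAs, and many of the genes adjust their own messenger RNA through splicing that leads to nonsense-mediated decay.

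Ribosome-depleted total RNA came from primary hippocampal neurons of Sprague-Dawley rats grown on filter inserts, with somata on the upper side and processes on the lower side. Cultures received picrotoxin (PTX), a blocker of the GABA-A receptor, for 48 h between days in vitro 18 and 20, or the ethanol vehicle as controls. There were 2 libraries for each of 4 conditions, namely somata control, somata PTX, processes control and processes PTX. The labels do not say whether the libraries of a condition came from separate cultures, so the p-values measure the spread between these libraries, which may be technical.

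The 8 libraries held 12290890 to 18455662 counts. The 43 genes received 48217 to 55901 reads per library in somata and 17904 to 24373 in processes, with a median of 873 to 1045 reads per gene in somata and 295 to 391 in processes, so that the process values are less precise. Neuron markers summed to 1976 to 2412 CPM (counts scaled by library size and TMM factor of edgeR) in somata and 4393 to 6290 in processes over 9 genes, none of them at 0, although gene by gene 3 were called higher in control processes and 6 lower (median log2 difference -0.57). The 6 astrocyte markers summed to 2600 to 3908 CPM in somata and 10500 to 13910 in processes, none at 0 in either compartment, with 2 called higher and 2 lower in control processes (median 0.25). The 8 markers of the oligodendrocyte lineage summed to 189 to 320.5 and 274 to 358.3 CPM, and the microglia markers to at most 1.73 CPM. The 4 markers of dividing cells summed to 83.1 to 91.2 CPM in control and 109 to 145.3 CPM in PTX somata, and to 123.8 to 145 and 240.7 to 244.5 CPM in the processes. In such bulk libraries, fewer cells of a type and less RNA per cell cannot be told apart, and the part of glia in each difference below was not tested.

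Of the 43 genes, 40 were found in the RefSeq promoter table of the rat assembly GRCr8, a later build than the Rnor_6.0 of the counts. Each entry covers 250 bases before and 50 after the annotated start. Promoters are shown for the 5 genes with the 3 largest and the 2 smallest log2 differences of processes over somata in control cultures, namely Hnrnpa3 (chr3:80985684-80985983, plus strand), Hnrnpul2 (chr1:215142500-215142799, plus strand) and Srsf1 (chr10:73336248-73336547, plus strand) on the process side and Srsf5 (chr6:106336506-106336805, plus strand) and Sf3a3 (chr5:142252157-142252456, plus strand) on the somatic side. Capitals mark matches on either strand to TGACG, the core of the cyclic AMP response element, to which the activity-dependent factor CREB binds, and the Hnrnpul2 and Sf3a3 windows hold none.
Hnrnpa3: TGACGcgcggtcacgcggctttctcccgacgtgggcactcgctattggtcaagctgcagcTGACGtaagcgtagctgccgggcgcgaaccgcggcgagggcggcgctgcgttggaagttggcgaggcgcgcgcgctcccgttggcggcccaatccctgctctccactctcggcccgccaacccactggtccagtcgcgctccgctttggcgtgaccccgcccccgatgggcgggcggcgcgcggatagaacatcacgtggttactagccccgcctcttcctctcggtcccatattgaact
Hnrnpul2: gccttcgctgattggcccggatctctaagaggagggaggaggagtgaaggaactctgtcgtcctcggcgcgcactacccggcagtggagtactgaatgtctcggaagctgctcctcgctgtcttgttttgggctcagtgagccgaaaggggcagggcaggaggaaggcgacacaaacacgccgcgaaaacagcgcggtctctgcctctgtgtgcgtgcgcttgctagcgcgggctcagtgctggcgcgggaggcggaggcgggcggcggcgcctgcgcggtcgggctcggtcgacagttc
Srsf1: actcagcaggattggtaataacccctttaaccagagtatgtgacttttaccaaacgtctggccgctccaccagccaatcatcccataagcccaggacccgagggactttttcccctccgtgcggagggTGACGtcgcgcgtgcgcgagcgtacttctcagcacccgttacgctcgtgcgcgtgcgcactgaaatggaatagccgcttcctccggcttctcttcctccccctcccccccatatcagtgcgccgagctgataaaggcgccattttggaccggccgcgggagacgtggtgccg
Srsf5: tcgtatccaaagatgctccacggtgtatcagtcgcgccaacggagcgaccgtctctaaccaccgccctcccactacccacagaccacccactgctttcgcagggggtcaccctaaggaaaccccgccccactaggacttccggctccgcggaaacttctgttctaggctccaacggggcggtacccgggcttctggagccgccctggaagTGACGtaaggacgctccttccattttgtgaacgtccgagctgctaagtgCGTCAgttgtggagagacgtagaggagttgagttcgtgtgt
Sf3a3: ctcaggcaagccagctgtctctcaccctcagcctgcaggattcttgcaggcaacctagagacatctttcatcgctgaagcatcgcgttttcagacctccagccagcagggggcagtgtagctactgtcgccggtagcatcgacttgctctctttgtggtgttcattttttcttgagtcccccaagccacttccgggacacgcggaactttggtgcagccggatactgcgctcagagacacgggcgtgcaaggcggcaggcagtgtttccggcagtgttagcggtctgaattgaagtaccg

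TGACG occurred in the promoters of 20 of the 40 genes (50%), against 21.2% of all 33469 promoters of this length. The median GC content of the 40 was 61.7%, against 51.7% for all promoters, and its part in this difference was not tested. The motif was found for 5 of the 10 genes that were higher in processes of control cultures and for 1 of the 6 that were lower, Srsf5, which carries it on both strands in the sequence above. The site of the early growth response (Egr) factors, GCGTGGGCG, was found for 1 gene, Hnrnpdl (2.5%, against 0.544% of all promoters).

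The first comparison asked how the transcripts are divided between processes and somata of control cultures. A gene was called when its adjusted p, from the quasi-likelihood test of edgeR with Benjamini-Hochberg adjustment over all 14309 genes, was under 0.05. Among the 43 genes 10 were higher in processes and 6 were lower, while 25.8% and 21.9% of all tested genes were. Differences over 2-fold were rarer, with 3 genes higher (Hnrnpa3, Hnrnpul2 and Srsf1) and 1 lower (Sf3a3), against 11.6% and 7.58% of all genes. The median log2 difference of the 43 was 0.06 and that of all genes -0.05, so the shares called were no larger than those of the transcriptome. All directions are relative to the TMM scaling, under which the median gene is near 0. With library size alone the median of all genes moved to -1.86, and 42 of the 43 were called lower in processes and 0 higher. With upper quartile factors 7 were higher and 14 lower. Called in either direction among all 14309 genes were 13462 and 7454, against 6823 with TMM. Process libraries held 4702054 to 5491237 counts outside mitochondrial symbols, and somatic ones 9517542 to 11227599. TMM factors were 0.49 to 0.57 in processes and 1.81 to 1.93 in somata. Of the counts outside mitochondrial symbols, the 43 genes held 0.37% to 0.44% in processes and 0.49% to 0.55% in somata. The part of mitochondrial reads in the shift between scalings was not tested.

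Of the 18 hnRNPs, 8 were called higher in processes and 0 lower, against 25.8% and 21.9% of all genes. A negative value that was not called was found for 5 of them. The median log2 difference of the 18 was 0.34, which turns negative with library size alone. With upper quartile factors Hnrnpab, Hnrnph1 and Hnrnph2 were called lower, and Hnrnpa2b1, Hnrnpc and Hnrnpm were not called. Relative to the median of all genes, 13 of the 18 were higher. A change of scaling shifts all genes by nearly the same amount. This count could therefore hardly differ between the 4 scalings tried, and their agreement is no support. Of the 11 SR proteins, 2 were called higher and 4 lower, against the same shares of all genes, with a median of -0.38. Relative to the median of all genes, 3 of the 11 were higher. The difference between the families was not tested.

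Hnrnpa3, an hnRNP of the A/B type that binds RNA transport signals, had 6.50 and 6.97 CPM in the 2 somata control libraries and 17.2 and 17.4 CPM in the 2 processes control libraries. Its log2 difference was 1.36 ± 0.25 (SE, n = 2 per condition; adjusted p = 0.00115). The groups were far apart, and the lowest process library exceeded the highest somatic one by over 2-fold. The libraries of the compartments did not overlap for 74.9% of all genes, so that a lack of overlap is common here.

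Hnrnpul2, a U-like scaffold protein, had 39.8 and 41.3 CPM in somata and 99.6 and 89.0 CPM in processes. Its log2 difference of 1.22 ± 0.11 had the lowest adjusted p of the family (9e-06). Its relative Hnrnpul1 was higher by 0.53 ± 0.10 (adjusted p = 0.00176), whereas Hnrnpu, the founding member of the U type, differed by 0.26 ± 0.13 (adjusted p = 0.115).

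Hnrnpd, which binds AU-rich elements and governs messenger RNA decay, had 24.1 and 22.2 CPM in somata and 38.4 and 40.3 CPM in processes, without overlap (0.76 ± 0.12, adjusted p = 0.000574). The other called hnRNPs were Hnrnpa1 (0.67), Hnrnpa2b1 (0.67), Hnrnpc (0.55) and Hnrnpm (0.50). Hnrnpa1 and Hnrnpa2b1 are the abundant A/B proteins that repress splice sites, Hnrnpc packages nascent RNA, and Hnrnpm binds GU-rich intronic sequence. For Hnrnpm the adjusted p was 0.0495, just under the threshold. Reads of Hnrnpa1 and Hnrnpa3 are of uncertain origin to the extent that they also align to processed copies of these genes.

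The other 10 hnRNPs were not called. Hnrnpk, a poly(C)-binding protein, had 111 and 116 CPM in somata and 96.6 and 112 CPM in processes, and these groups overlapped (-0.12 ± 0.16, adjusted p = 0.573). At the lower end of the family Hnrnph1 differed by -0.34, Hnrnpab by -0.22 and Hnrnph2 by -0.16. Hnrnpdl, the close relative of Hnrnpd, differed by -0.12 ± 0.12 (adjusted p = 0.464).

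Among the SR proteins, Srsf1 (the splicing activator SF2/ASF) had 84.5 and 102 CPM in somata and 162 and 228 CPM in processes. Its log2 difference was 1.06 ± 0.22 (adjusted p = 0.00237), although the process libraries differed widely from each other. Srsf4 was also higher (0.68 ± 0.13, adjusted p = 0.00146).

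Srsf5 moved the other way, from 96.2 and 103 CPM in somata to 47.5 and 55.8 CPM in processes (-0.95 ± 0.11, adjusted p = 7.17e-05). Srsf7, which also links splicing to RNA export, had 21.3 and 24.2 CPM in somata and 12.3 and 14.7 in processes (-0.76 ± 0.21, adjusted p = 0.012). Neither gene's groups overlapped. Srsf2 and Srsf9 were each lower by 0.54 on the log2 scale (adjusted p = 0.00667 and 0.0474), and Srsf6 had a value of -0.66 that was not called (adjusted p = 0.0541).

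At the branch point, Sf3a3, the SF3a subunit that contacts SF3b, had 18.2 and 18.9 CPM in somata and 9.48 and 8.22 CPM in processes (-1.07 ± 0.23, adjusted p = 0.00354). The other SF3a subunits were not called, with -0.01 for Sf3a1 and 0.25 for Sf3a2. Sf3b1, the subunit that cradles the branch point helix, had 229 and 212 CPM in somata and 141 and 171 CPM in processes, again without overlap (-0.50 ± 0.12, adjusted p = 0.00622).

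The other 5 SF3b genes lay between -0.41 (Sf3b4) and 0.19 (Sf3b5) and none was called. Among the U2AF genes none was called, with -0.12 for U2af2, 0.01 for U2af1 and 0.41 for U2af1l4 (adjusted p = 0.0694). Of the DBHS pair of paraspeckle proteins neither was called, with 0.15 ± 0.12 for Nono and -0.27 ± 0.11 for Sfpq (adjusted p = 0.313 and 0.0573). Sfpq had 62.8 and 64.3 CPM in somata and 52.2 and 53.2 CPM in processes.

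**Figure D1:**
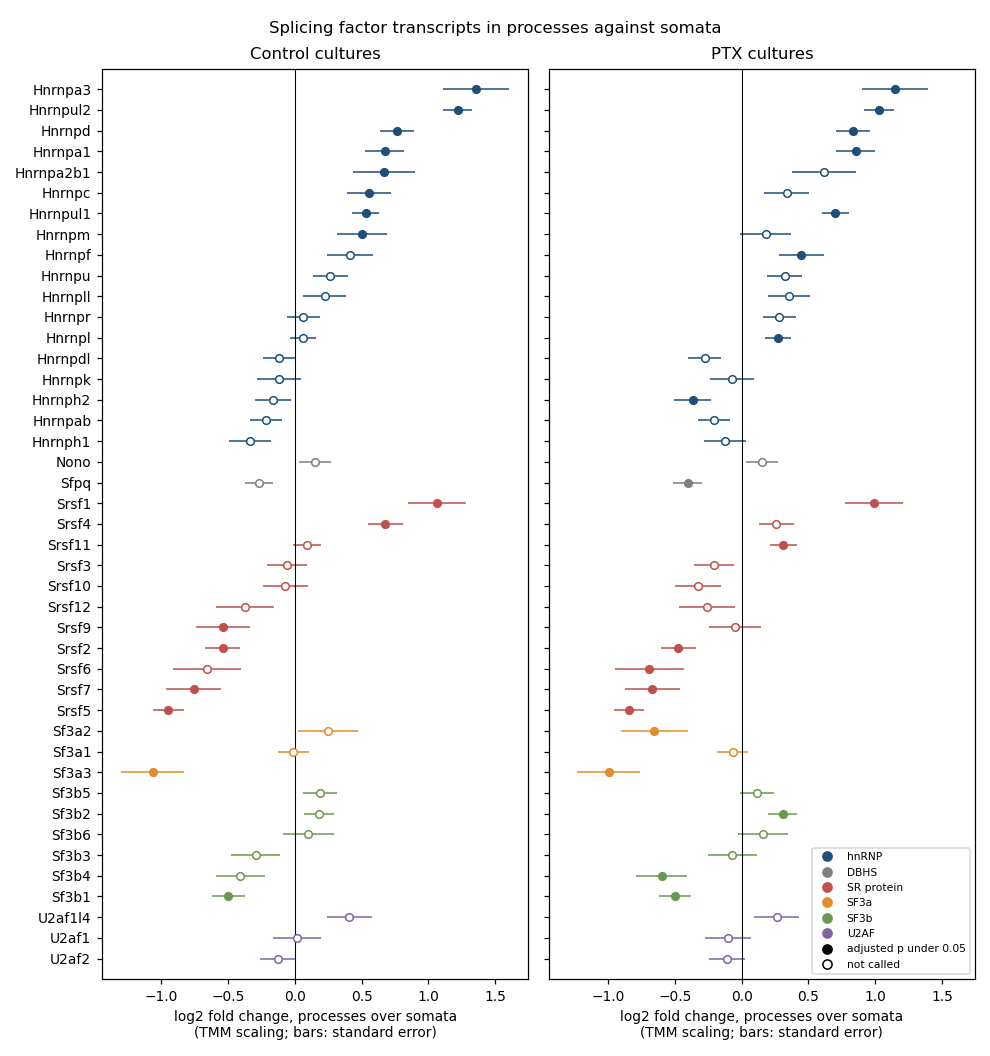
Log2 fold change of processes over somata for the 43 genes in control (left) and PTX cultures (right), with standard errors as bars, grouped by family; filled points have an adjusted p under 0.05. Under the TMM scaling 8 of 18 hnRNPs are called higher in control processes and none lower, against 25.8% and 21.9% of all tested genes. The SR proteins range from -0.95 for Srsf5 to 1.06 for Srsf1. With library size alone the higher values become negative, and with upper quartile factors Hnrnpab, Hnrnph1 and Hnrnph2 are called lower.

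The replicate numbers in the labels were taken to pair the libraries, which the labels do not state. With the number added to the model as a block, 13 genes were higher in processes and 10 lower, against 29.8% and 28.0% of all genes. Srsf6 was then among the lower genes (adjusted p = 1.99e-05), as was Sfpq (0.0158), and Hnrnpu was among the higher ones (0.0212). When each of the 8 libraries was left out in turn, 10 genes stayed called in control cultures, among them Hnrnpa3, Hnrnpul2, Hnrnpd, Srsf1, Srsf5 and Sf3a3. The share of all genes that stayed called in each of these fits was not counted, so no background stands beside this count. Leaving out 1 of the control libraries also lowered the number called among all genes. Lower counts there thus need not be particular to these genes.

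The same comparison in PTX cultures used separate libraries within the same model. The replicate numbers were taken to pair them with the control libraries, so it is not an independent repeat. Here 10 genes were higher in processes and 10 lower, against 25.7% and 24.0% of all genes, and over 2-fold 2 were higher and 0 lower (11.4% and 9.67%). The 2 were Hnrnpa3 (1.15 ± 0.24) and Hnrnpul2 (1.03 ± 0.11). Without the processes PTX replicate 2 library Hnrnpa3 had 0.68 and Srsf1 0.65, both still called. Called in the same direction in both kinds of culture were 11 genes, of which 6 were higher in processes (Hnrnpa1, Hnrnpa3, Hnrnpd, Hnrnpul1, Hnrnpul2 and Srsf1) and 5 lower (Sf3a3, Sf3b1, Srsf2, Srsf5 and Srsf7). With library size alone these 6 were negative in both. The share of all genes called alike in both was not counted, so no background stands beside the 11.

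Srsf1 had 85.5 and 106 CPM in somata and 150 and 230 CPM in processes of PTX cultures (0.99 ± 0.22, adjusted p = 0.00334). Srsf5 had 94.0 and 101 CPM in somata and 53.2 and 55.4 in processes (-0.85 ± 0.11, adjusted p = 0.000145). Both genes took the same side as in control cultures, with no overlap between the compartments, as for 75.9% of all genes.

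Sf3a3 had 14.3 and 17.5 CPM in somata and 5.40 and 10.4 in processes (-0.995 ± 0.24, adjusted p = 0.00514). Its process libraries differed more from each other than the higher of them did from the lower somatic library. Without the processes PTX replicate 1 library, which holds the lower value, the log2 difference was -0.62, and it remained called.

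A further 9 genes were called in PTX cultures alone. Higher were Hnrnpf (0.45), Srsf11 (0.31), Sf3b2 (0.31) and Hnrnpl (0.27), and lower were Srsf6 (-0.69), Sf3a2 (-0.65), Sf3b4 (-0.60), Sfpq (-0.40) and Hnrnph2 (-0.37). Conversely 5 genes were called in control cultures alone, of which Hnrnpa2b1 still had 0.62 in PTX cultures (adjusted p = 0.0501, and 0.16 to 0.96 with 1 library left out), Hnrnpc 0.34, Srsf4 0.26, Hnrnpm 0.18 and Srsf9 -0.05. None of these differences between the cultures passed the test of the difference itself, which is given with the PTX effects. Leaving out 1 library of the PTX cultures lowered the number called among all genes too. Lower counts of these genes in such fits thus need not be particular to them.

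**Figure D2:**
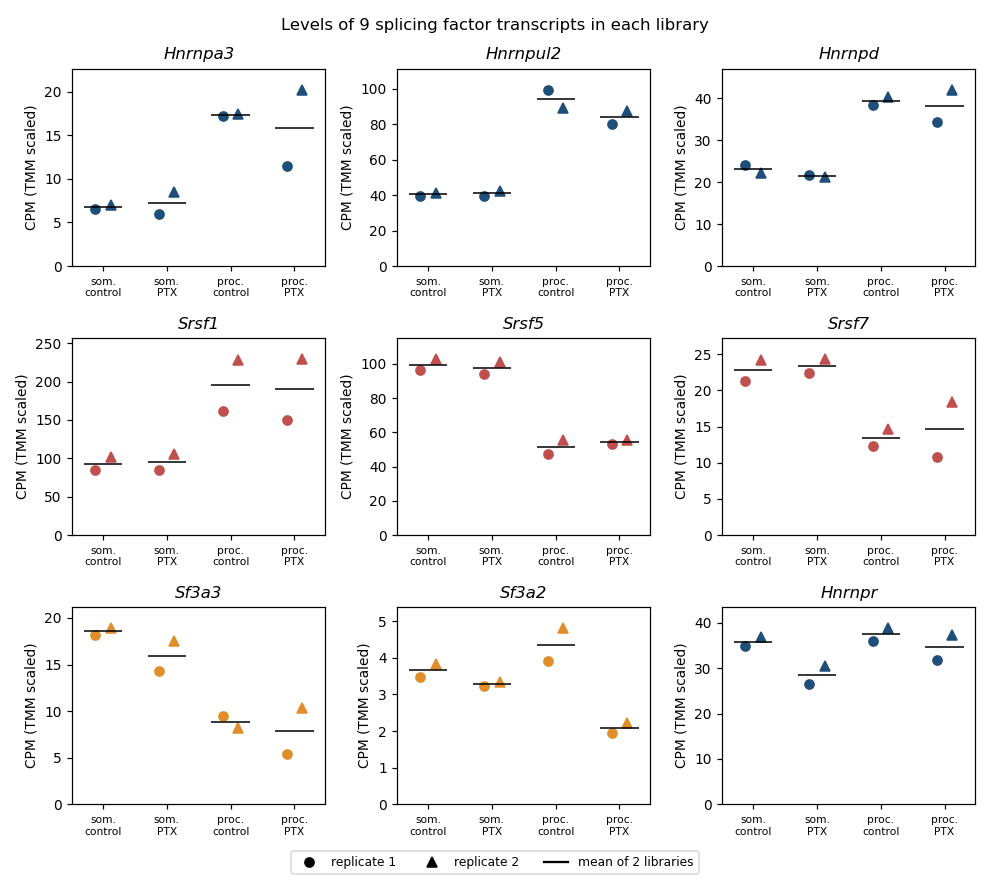
CPM after TMM scaling in each of the 8 libraries for 9 genes (circles, replicate 1; triangles, replicate 2; lines, mean of the 2 libraries). Hnrnpa3, Hnrnpul2, Hnrnpd and Srsf1 sit higher in processes under this scaling and lower with library size alone, Srsf5, Srsf7 and Sf3a3 sit lower, Sf3a2 stands at 3.90 and 4.82 CPM in control processes and at 1.95 and 2.21 after PTX, and the replicate 2 value of most genes is the higher of its pair.

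The second question was whether 48 h of PTX changed these transcripts in either compartment. In somata 0 of the 43 genes were called in either direction, while 2.09% of all genes were higher and 1.50% lower. Unadjusted p-values were under 0.05 for 2 genes, against 2229 of all 14309, and neither the likelihood ratio test nor DESeq2 called any. Of all genes, these 2 tests called 972 and 503. The 95% intervals of all 43 log2 changes lay within 1 of zero in either direction, and 33 of them within 0.5, so that a 2-fold change of any of the genes lay outside its interval in somata.

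The somatic gene with the lowest adjusted p was Hnrnpr, which binds actin and other messenger RNAs in axons. It had 34.8 and 36.9 CPM in control somata and 26.6 and 30.5 CPM after PTX, so that the groups did not overlap (-0.33 ± 0.12, adjusted p = 0.197), as for 49.0% of all genes. With the replicate block it was called (adjusted p = 0.0159), and it was then the single gene lower, with 0 higher, against 6.79% and 7.21% of all genes. Hnrnpul1 had a value of -0.24 ± 0.10 (adjusted p = 0.271), and Sf3b4 of -0.23. The largest positive values were those of U2af1 (0.32, adjusted p = 0.398), Sf3b1 (0.20) and Sf3b5 (0.19).

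In processes 0 of the 43 were called as well, against 1.64% of all genes higher and 2.10% lower. Unadjusted p-values were under 0.05 for 5 genes, namely Sf3a2, Srsf4, Hnrnpl, Srsf11 and Sfpq, against 2369 of all 14309. DESeq2 called 0 and the likelihood ratio test 1, Sf3a2, against 640 and 949 of all 14309. The 95% intervals of 42 genes lay within 1 of zero and those of 23 within 0.5, and Sf3a2 was the exception.

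Sf3a2, an SF3a subunit, had 3.90 and 4.82 CPM in control processes and 1.95 and 2.21 CPM after PTX, a log2 change of -1.06 ± 0.27 (adjusted p = 0.0578, 95% interval -1.65 to -0.47). These values rest on 35 and 41 reads and, after PTX, on 17 and 22 reads, the lowest of the 43 genes in those libraries. The groups did not overlap, which held for 42.4% of all genes. In somata the same gene had 3.48 and 3.84 CPM in control and 3.24 and 3.35 CPM after PTX (-0.16 ± 0.20, adjusted p = 0.816). It was called with the likelihood ratio test, without a filter on low counts, with at least 10 reads in every library, and with the replicate block. In that order, these settings called 949 of 14309, 1129 of 22657, 537 of 12578 and 1601 of 14309 genes in either direction. Without these changes 535 of 14309 were called.

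With the block 1 gene was higher after PTX in processes, Hnrnpl (0.29, adjusted p = 0.0423), and 3 were lower, Sf3a2 (-1.06, 0.0178), Hnrnpm (-0.39, 0.0215) and Srsf4 (-0.41, 0.0362), against 5.10% and 6.09% of all genes. Hnrnpl, a repressor that binds CA repeats, had 72.6 and 74.7 CPM in control processes and 89.9 and 90.4 after PTX. Srsf4 had 24.5 and 29.2 CPM in control processes and 19.2 and 21.2 after PTX. Neither gene's groups overlapped, and in somata their log2 changes were 0.07 and 0.01. The other members at the ends of the range in processes were not called by either fit, with -0.42 for Sf3b4, 0.31 for Srsf11 and 0.30 for Srsf9.

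The study names Sfpq, Nono and Hnrnpk, but its main text does not name their transcripts as responding to PTX. None of them was called for PTX in either compartment. Sfpq, also found in RNA granules of axons, went from 62.8 and 64.3 CPM to 57.1 and 60.3 CPM in somata (-0.11 ± 0.10, adjusted p = 0.696) and from 52.2 and 53.2 CPM to 41.5 and 47.2 CPM in processes (-0.25 ± 0.11, adjusted p = 0.293). Nono had -0.08 in both compartments (adjusted p = 0.829 and 0.8). Hnrnpk had -0.07 in somata and -0.02 in processes, with 95% intervals from -0.42 to 0.29 and from -0.39 to 0.35.

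Whether PTX acted differently in the compartments was tested by the interaction, which takes the response of the somata from that of the processes. It was called for 0 of the 43 and for 0% of all genes with the quasi-likelihood test. Of all genes the likelihood ratio test and DESeq2 each called 4 and the fit with the block 15, with 0 of the 43 among them. With the quasi-likelihood test 2 of the 43 had an unadjusted p under 0.05, against 572 of all 14309. These were Sf3a2 (-0.90 ± 0.34) and Srsf4 (-0.42 ± 0.18), both with an adjusted p of 1. The next values were -0.32 for Hnrnpm, and 0.49 for Srsf9, 0.22 for Sf3b3 and 0.22 for Srsf11 at the other end. The 95% intervals of 41 genes lay within 1 of zero, so that for most of the genes a difference of more than 2-fold between the compartments lay outside the interval. Those of 13 genes lay within 0.5, and the median interval reached 0.47 to either side.

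**Figure D3:**
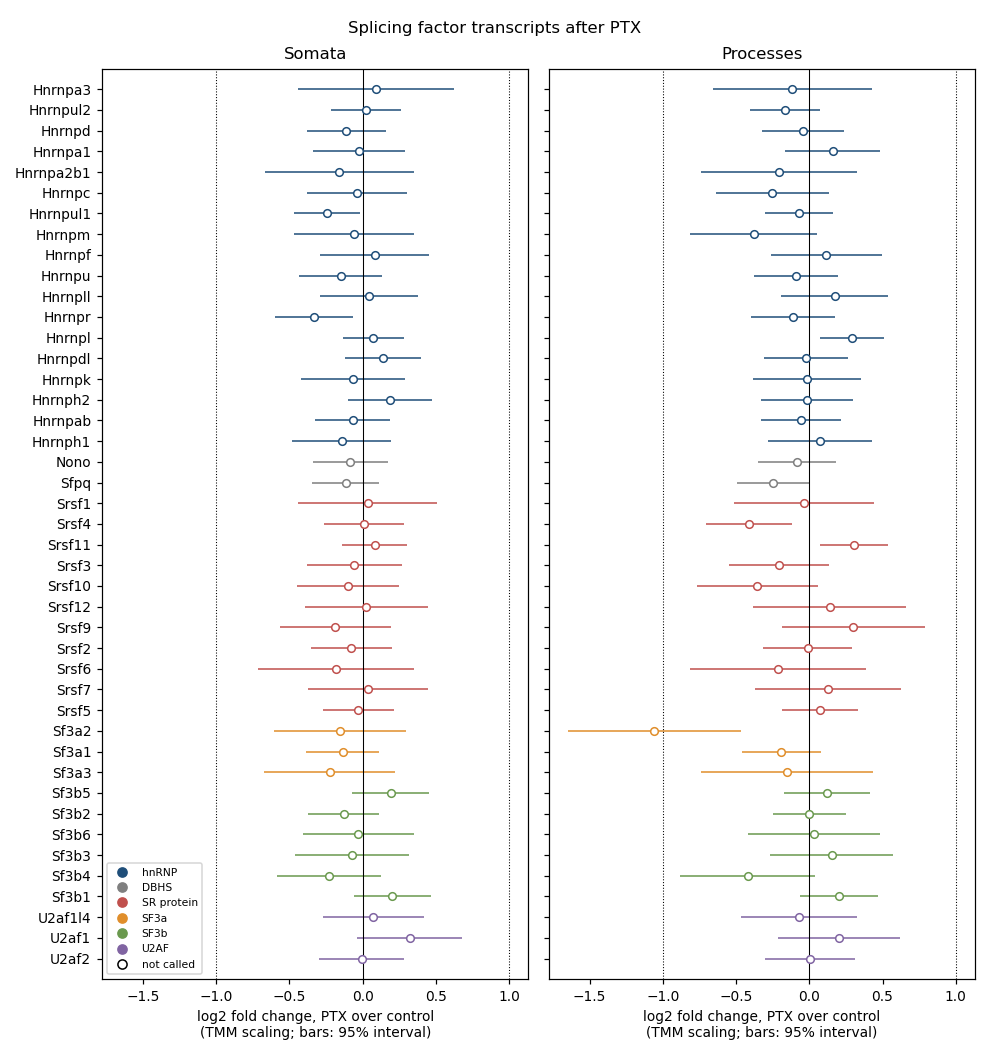
Log2 fold change of PTX over control for the 43 genes in somata (left) and processes (right), with 95% intervals as bars and dotted lines at a 2-fold change. Open points are not called, which holds for all 43 genes in both compartments; the interval of Sf3a2 in processes, -1.65 to -0.47, crosses the dotted line.

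The libraries with the same replicate number shared a pattern of their own. Of the 43 genes, 39 were higher in replicate 2 than in replicate 1 in control somata, 38 in PTX somata, 34 in control processes and 36 in PTX processes, with median log2 differences of 0.09, 0.14, 0.12 and 0.21, where the median of all genes was near 0. Higher in replicate 2 in all 4 conditions were 27 of the 43 (62.8%), against 14.9% of all tested genes, and 1 was lower in all 4, Srsf12, against 16.7% of all genes. The numbers were taken to pair the libraries across conditions. These 4 comparisons may thus share 1 difference between cultures or batches and are not taken as independent.

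Srsf6 showed the pattern in full, with 45.2 and 53.8 CPM in control somata, 37.1 and 50.3 in PTX somata, 23.3 and 39.5 in control processes and 20.8 and 33.0 in PTX processes, replicate 1 first. In each of the 4 conditions replicate 2 held the higher value. Hnrnpa3 had nearly equal values in control processes, 17.2 and 17.4 CPM, and 11.5 and 20.2 CPM in PTX processes. Srsf1 was higher in replicate 2 by 0.27 to 0.62 on the log2 scale over the 4 conditions.

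By family, 12 of 18 hnRNPs, 8 of 11 SR proteins, 2 of 3 SF3a, 2 of 3 U2AF and both DBHS genes were higher in replicate 2 in all 4 conditions, but 1 of 6 SF3b genes, Sf3b3. Other lists of splicing genes had smaller shares, such as 37.5% of 16 other hnRNP-type genes and 29.2% of 24 genes for snRNP proteins. Cell type markers moved with the numbers too. Among the 9 neuron markers 6 were lower and 0 higher in replicate 2 in all 4 conditions, while 5 of 8 oligodendrocyte lineage markers and 3 of 6 astrocyte markers were higher and none lower, and all 3 tested endothelium and fibroblast markers were lower. Their part in the pattern was not tested, and the labels do not say what the numbers mark.

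**Figure D4:**
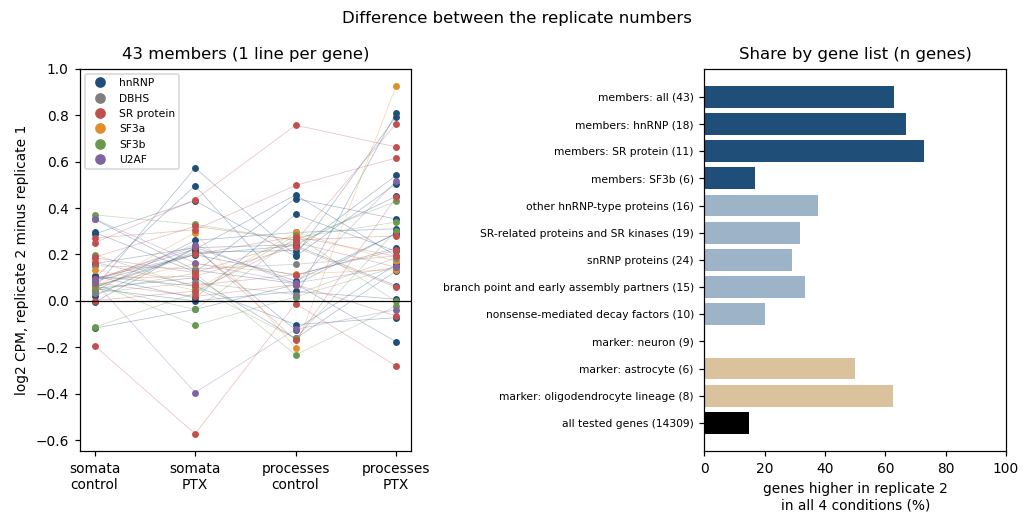
Left, log2 CPM of replicate 2 minus replicate 1 for each of the 43 genes in the 4 conditions; right, the percentage of genes in each list that are higher in replicate 2 in all 4. The share is 62.8% for the 43 genes, 62.5% for oligodendrocyte lineage markers, 50% for astrocyte markers, 0% for neuron markers and 14.9% for all 14309 tested genes.

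Partners of these proteins were counted in the same way, against the same 25.8% of all genes higher and 21.9% lower in control processes, and no list was tested against them. Among 19 tested genes for SR-related proteins and SR kinases, 2 were higher in control processes and 9 lower, with a median log2 difference of -0.26. The lower ones included Clk1 (-2.04), Clk4 (-1.44) and Tra2a (-1.03). CLK kinases phosphorylate SR proteins in the nucleus, and the other family members were lower as well (Clk3 -0.98, Clk2 -0.55). Srpk2, of the kinases that act on SR proteins in the cytoplasm, was higher (0.85, adjusted p = 9.59e-05), while Srpk1 was not called (-0.26, adjusted p = 0.127). Clk2 and the SRPK genes were chosen for mention after their values were seen. These directions, like those above, are relative to the TMM scaling.

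Among 16 other hnRNP-type genes 3 were higher in control processes and 5 lower. Taf15 (0.85), Pcbp4 (0.74) and Syncrip (0.72) were higher, Syncrip being a component of neuronal transport granules, and Rbmx, also known as hnRNP G, was among the lower ones (-0.76). Of 15 partners at the branch point and in early assembly 5 were higher and 3 lower, with -1.43 for Luc7l3 and 0.72 for Luc7l2, both of them U1-associated proteins. PTX called none of the genes in these 3 lists in either compartment. Of all genes, 2.09% were higher and 1.50% lower in somata, and 1.64% and 2.10% in processes.

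The 24 tested genes for snRNP proteins included 7 higher and 5 lower in control processes, with 1.20 for Snrnp25 and 1.17 for the core protein gene Snrpd2 on the process side, and -1.25 for Snrnp48 on the somatic side. The small nuclear RNAs themselves were mostly lower in control processes. Their log2 differences were -4.255 for U1, -4.315 for U2, -3.35 for U4, -1.32 for U12 and -0.74 for U6. U11 had -2.09, with 6 and 0 reads in control processes, and U5 was not called (adjusted p = 0.084). PTX raised Snrpa1, which encodes the U2 A' protein, in somata from 9.73 and 10.03 to 18.3 and 15.7 CPM (0.79 ± 0.15, adjusted p = 0.0186). In processes it went from 7.69 and 10.7 to 15.5 and 15.1 CPM, which was not called (0.74 ± 0.18, adjusted p = 0.0509). Snrpg, of the Sm core, rose in processes from 11.3 and 11.6 to 16.3 and 18.7 CPM (0.62 ± 0.15, adjusted p = 0.0473) and had 0.21 in somata (adjusted p = 0.569). These were the only calls for PTX in the 6 lists of partner genes. The 4 markers of dividing cells had positive PTX values in both compartments too, with 1 of them called in somata and 3 in processes (median 0.65 and 1.14), and their part in these rises was not tested.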

How the data were processed

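The deposited values are whole-number counts of reads per gene symbol. Per the study's methods, the authors trimmed reads with Trimmomatic 0.38, aligned them with Subread subjunc to Rnor_6.0, assigned them to the Ensembl 96 annotation by featureCounts and added them up by symbol. The submitters' processing notes also name STAR, with no role, and whether strand was used in counting is not given in the sources used here. Of the deposited comparison tables, only the gene biotype was used. They also hold the authors' log2 fold changes, log2 CPM, likelihood ratios, p-values and FDRs, which were not used.

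Genes passed the filter on low counts if 2 or more libraries held over 20 reads. One model with a term for each condition was fitted to the 8 libraries in edgeR 4.0.16 (R 4.3.3), with TMM factors, glmQLFit and glmQLFTest, and Benjamini-Hochberg adjustment was made separately for each contrast. Levels are CPM after TMM scaling, and replicate differences use log2 CPM with a prior count of 2. As alternatives, the likelihood ratio test of edgeR, DESeq2 1.42.0, other scalings and filters, only the 4 libraries compared, a replicate block and leaving out each library were run. The script was tested on simulated data.

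The replicate number in the labels was taken to pair the libraries, because replicate 2 minus replicate 1 correlated across all genes with r = 0.274 to 0.54 for each of the 6 pairs of conditions. The genes and lists were chosen with earlier results of these data known. Genes were named when called in any contrast, when among the 3 largest or smallest differences of a contrast, as the leading gene of a family by mean CPM, or as named by the study (Sfpq, Nono, Hnrnpk), and partner genes when among the 3 largest called differences of a list. Nucleus-retained RNAs and proteins were not analysed here.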

Additional observations from a re-analysis of the deposited data

How the results depend on the processing

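Scaling by library size alone called 0 genes higher and 42 lower in control processes, and 0 higher and 43 lower in PTX processes, since the median of all genes moved to -1.86 and -1.87. The genes that were higher in processes then had negative log2 differences. In control cultures these were Hnrnpa1 -1.13, Hnrnpa2b1 -1.14, Hnrnpa3 -0.45, Hnrnpc -1.25, Hnrnpd -1.04, Hnrnpm -1.30, Hnrnpul1 -1.28, Hnrnpul2 -0.59, Srsf1 -0.73 and Srsf4 -1.12. In PTX cultures they were Hnrnpa1 -0.96, Hnrnpa3 -0.66, Hnrnpd -0.99, Hnrnpf -1.37, Hnrnpl -1.55, Hnrnpul1 -1.13, Hnrnpul2 -0.79, Sf3b2 -1.52, Srsf1 -0.82 and Srsf11 -1.52. Upper quartile factors called 14 lower in control processes and 6 higher in PTX processes. At least 10 reads in every library gave 10 lower in control processes and 6 higher in PTX processes. Of the 12578 genes passing that filter, 6561 were called in either direction in control cultures and 6688 in PTX cultures. Upper quartile factors called 7454 and 7672 of 14309. The cause was not tested.

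With the replicate block, 10 were lower in control processes, 1 was lower after PTX in somata, and 1 was higher and 3 were lower after PTX in processes. The block moved no other count of these genes by over 1.5 times. PTX lowered 1 gene in processes, Sf3a2, with the likelihood ratio test, without a filter and with at least 10 reads in every library. These settings called 949 of 14309, 1129 of 22657 and 537 of 12578 genes in either direction. Leaving out each library gave 7 to 10 genes higher and 3 to 7 lower in control processes, 6 to 11 higher and 3 to 10 lower in PTX processes, and 0 for PTX and the interaction. The interaction of Sf3b3 ranged from -0.0109, without the processes PTX replicate 2 library, to 0.419. A condition left with 1 library was assumed to vary like the others. The number called among all genes fell too when a library of a compared condition was left out.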

Other observations

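Genes that act on the splicing factors after transcription were counted in the same way, where 25.8% of all genes were higher in control processes and 21.9% lower. Of 10 nonsense-mediated decay factors, through which many SR and hnRNP genes limit their own messenger RNA, 2 were higher in control processes, Upf2 (1.69 ± 0.14) and Upf3a (1.03 ± 0.28), and 2 were lower, Smg9 (-1.15 ± 0.22) and Smg1 (-0.58 ± 0.11), the latter named after its value was seen. In PTX cultures 2 were higher and 4 lower, against 25.7% and 24.0% of all genes. Among them were again Upf2 (1.64) on the process side and Smg9 (-1.16) on the somatic side. Of 8 genes for the methylation of hnRNP and SR proteins, Prmt2 was higher in control processes (0.54 ± 0.14) and Prmt5 (-0.47 ± 0.11) and its partner Wdr77 (-0.44 ± 0.15) were lower. These directions hold under TMM scaling, and with library size alone the median of all genes lies at -1.86. None of the 18 genes was called for PTX in either compartment, against 2.09% of all genes higher and 1.50% lower in somata. In processes the shares of all genes were 1.64% higher and 2.10% lower.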
